A study of Homo sapiens with 8 samples.

Results

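The nuclear genes of oxidative phosphorylation (OXPHOS) on the autosomes were examined for G-quadruplex (G4) intervals at their transcription start sites (TSSs). Genes were taken by symbol, as protein-coding genes starting with NDUFA, NDUFB, NDUFC, NDUFS, NDUFV, SDHA to SDHD, UQCR, COX4 to COX8 or ATP5, which gave 99 genes of 19229 autosomal protein-coding genes. Of the 99, 85 encode subunits or close paralogs and regulators of complexes I to V, 12 are assembly factors caught by the same prefixes (NDUFAF and SDHAF genes) and 2 are readthrough genes (ATP5MF-PTCD1 and NDUFC2-KCTD14). The rule uses symbols alone and no measured value.

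G4 ChIP-seq pulls down sheared, formaldehyde-fixed chromatin with an antibody against folded G4s and sequences the recovered DNA. The groups are K562 cells, from chronic myelogenous leukemia, and HepG2 cells, from hepatocellular carcinoma. Each has 3 G4 ChIP libraries and 1 input library in the sample list. The labels name no treatment or genetic change, and call the replicates technical. The paper describes 3 independent experiments per line, with 2 to 3 technical replicates in each. Which labelled library holds which replicate was not worked out. The deposited lists are already merged, with 1 high-confidence list per line (intervals found in at least 5 of 8 K562 replicates or 6 of 9 HepG2 replicates) and 1 lower-confidence list (at least 2 replicates). In these lists there is no spread between replicates, no depth and no peak height to draw on, and no test between the lines or between gene groups was made. All counts below are descriptions, and the main ones are set beside the same share over all 19229 genes. A gene was scored by any interval that shares at least 1 bp with the 1 kb either side of any of its TSSs.

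A G4 is a stack of guanine tetrads that a G-rich strand can fold into, and in chromatin such structures are mapped mostly to nucleosome-depleted promoters. OXPHOS is the chain of mitochondrial inner-membrane complexes that passes electrons from NADH and succinate to oxygen and uses the resulting proton gradient to make ATP. Most of its subunits are encoded in the nucleus, in housekeeping genes with CpG-rich, TATA-less promoters. NRF1, GABPA (the DNA-binding part of NRF2), YY1 and SP1 are transcription factors long known to bind such promoters.

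The promoters with G4 intervals in both lines differed widely in sequence, and the following stretches are shown as examples. Complete G4 motifs, meaning 4 tracts of 3 or more G separated by loops of 1 to 7 bases (both strands searched), that lie in the stretch common to the K562 and HepG2 high-confidence intervals are printed for up to 2 genes per complex, on the strand with the G runs, which stand in capitals. The positions are on hg19, and 5 of the 6 motifs are on the template strand of the gene, a share not computed for all genes. No gene of complex III had such a motif. A loop base may itself be G, so the run of 7 G in COX7A2L counts as 2 tracts.
NDUFV2 (chr18:9102555-9102585, minus strand): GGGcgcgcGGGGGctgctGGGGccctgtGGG
NDUFV2 (chr18:9102591-9102612, minus strand): GGGGcGGGGGctgacGGGaGGG
NDUFA11 (chr19:5904818-5904843, plus strand): GGGGcGGGGccctcccGGGGGcGGGG
SDHB (chr1:17380662-17380684, plus strand): GGGtGGGcggaGGGaaggcGGGG
COX7A2L (chr2:42588708-42588727, plus strand): GGGGcctGGGGGGGagaGGG
ATP5PD (chr17:73043236-73043259, minus strand): GGGGGtGGGGcagaGGGGagaGGG

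Other intervals held no such motif. Sites matching a core form of the NRF1 recognition sequence (GCGCA, any base, then GCGC) lay inside the common stretch at SDHA, UQCRC1, NDUFA3, ATP5ME and ATP5PO. None of those stretches held a complete G4 motif. Such motifs were in only 14.3% of K562 and 11.7% of HepG2 high-confidence intervals at OXPHOS genes, so their absence from a few stretches says little. Single intervals could hold both, as at UQCR11 in K562 (1 motif, 2 NRF1 matches) and COX7A2L in HepG2 (1 of each). The NRF1 matches in the common stretches are shown with 10 bases on each side on the plus strand of hg19, with the matching bases in capitals.
SDHA (chr5:218259-218288): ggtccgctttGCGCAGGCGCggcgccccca
SDHA (chr5:218308-218337): gtggcatggtGCGCAGGCGCgatgtccccc
SDHA (chr5:218357-218386): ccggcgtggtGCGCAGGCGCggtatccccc
SDHA (chr5:218406-218435): ccggtgtggtGCGCAGGCGCagtctgcgca
UQCRC1 (chr3:48647107-48647136): ggcggtcgcgGCGCAGGCGCagtaccgtac
NDUFA3 (chr19:54606080-54606109): gtgctccaggGCGCACGCGCagccctggga
ATP5ME (chr4:668220-668249): gtcacgtgagGCGCACGCGCacaaaggctg
ATP5PO (chr21:35288113-35288142): acgcgcaaggGCGCACGCGCgcgttggcgt

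For 3 genes, picked after their values were seen to show the range, the longest piece of the common stretch outside annotated exons is printed on the gene's strand. In NDUFV2 (chr18:9102471-9102627) and ATP5F1B (chr12:57039780-57039924) runs of at least 3 G or 3 C are in capitals, a C run being a G run on the other strand, and in SDHA (chr5:218269-218412) the NRF1 pattern is.
NDUFV2: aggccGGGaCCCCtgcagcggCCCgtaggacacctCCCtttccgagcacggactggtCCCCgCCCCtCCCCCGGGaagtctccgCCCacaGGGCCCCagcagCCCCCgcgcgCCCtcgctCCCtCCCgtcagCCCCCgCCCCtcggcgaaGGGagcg
SDHA: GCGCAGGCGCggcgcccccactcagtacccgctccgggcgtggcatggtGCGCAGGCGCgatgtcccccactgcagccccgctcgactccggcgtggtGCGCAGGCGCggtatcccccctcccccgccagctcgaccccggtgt
ATP5F1B: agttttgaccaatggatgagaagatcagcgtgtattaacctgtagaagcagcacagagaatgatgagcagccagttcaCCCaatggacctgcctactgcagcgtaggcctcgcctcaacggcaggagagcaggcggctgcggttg
The GC content of these stretches was 77.7% in NDUFV2, 77.1% in SDHA and 54.5% in ATP5F1B. The ATP5F1B stretch holds a single run of 3 C, yet it lies in a high-confidence interval of both lines.

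More OXPHOS promoters carried a G4 interval than did promoters of coding genes at large. In K562, 51 of the 99 genes (51.5%, 95% Wilson interval 41.8 to 61.1%) had a high-confidence interval, against 36.7% of all genes. In HepG2 it was 54 of 99 (54.5%, 44.8 to 64%), against 32% of all genes. Both lines were positive at 41 genes (41.4%, 32.2 to 51.3%), against 25.3%. These intervals, and the ones below, cover the counting of genes only. With the lower-confidence lists included, 75 genes (75.8%) were positive in K562 and 79 (79.8%) in HepG2, against 51.3% and 52.9% of all genes. The share with no interval in any list was 19 of 99 (19.2%, 12.6 to 28%), against 39.6%. All coding genes include many that are used only in particular tissues, and expression in the lines was not analysed here, so its part in these differences was not tested. The windows were of similar size, with a median of 6 TSSs and 4044 bp for the OXPHOS genes and 5 TSSs and 4688 bp for all genes.

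**Figure D1:**
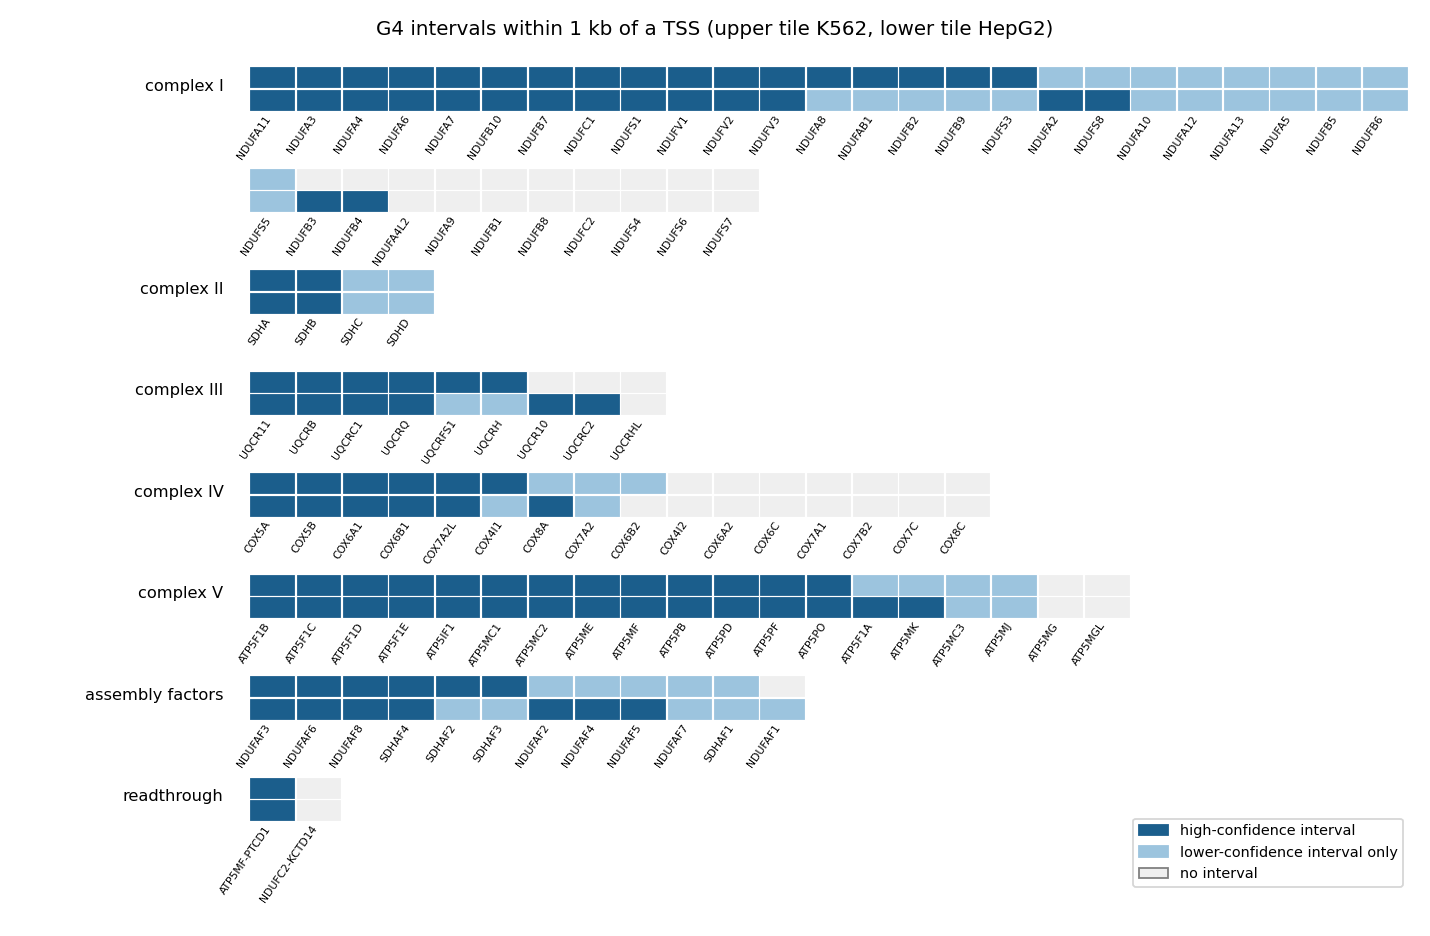
Class of 98 of the 99 genes by complex, with the K562 tile above the HepG2 tile; dark tiles stand for a high-confidence interval within 1 kb of a TSS, pale blue for a lower-confidence interval only, and grey for none. In complex V 13 of 19 genes are dark in both lines, in complex I 12 are, and 7 of the 16 genes of complex IV are grey in both. Of all coding genes, 25.3% would be dark in both lines and 39.6% grey in both.

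Other large housekeeping complexes gave shares near those of the OXPHOS genes. Of 78 mitochondrial ribosomal protein genes, 38 (48.7%) had a high-confidence interval in K562, and 38 (48.7%) did in HepG2. Of 81 cytosolic ribosomal protein genes, a few paralogs included, 39 (48.1%) were positive in K562 and 46 (56.8%) in HepG2. Of 38 proteasome subunit genes, 21 (55.3%) and 19 (50%) were positive in K562 and HepG2. All these shares lie inside the Wilson intervals of the OXPHOS share in the same line, so the OXPHOS genes did not stand apart from these groups in these counts.

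Complex I (NADH dehydrogenase) takes electrons from NADH and pumps protons. Of its 37 genes, 17 (45.9%) were positive in K562 and 17 (45.9%) in HepG2, 12 (32.4%) in both, and 8 had no interval. Over all genes the shares were 36.7% in K562, 32% in HepG2, 25.3% in both and 39.6% with no interval. The genes positive in both lines were NDUFA3, NDUFA4, NDUFA6, NDUFA7, NDUFA11, NDUFB7, NDUFB10, NDUFC1, NDUFS1, NDUFV1, NDUFV2 and NDUFV3. NDUFA4 is now placed in complex IV by biochemists and is kept here under its symbol. All 3 NDUFV genes were positive in both lines, whereas only 1 of the 8 NDUFS genes (NDUFS1) was, although the NDUFS set supplies most of the iron-sulfur core. Among the conserved core subunits, NDUFV1, which binds FMN and oxidises NADH, and the iron-sulfur subunits NDUFV2 and NDUFS1 were positive in both lines. NDUFS8, another iron-sulfur subunit, was high-confidence in HepG2 and lower-confidence in K562. NDUFS3 was the reverse by the window rule, and NDUFS7 had no interval in any list. The NDUFS3 high-confidence interval in K562 was centred 130.5 bp downstream of a non-canonical NDUFS3 TSS and 8.5 bp from the TSS of PTPMT1. Around the canonical NDUFS3 TSS the intervals were lower-confidence only, in both lines.

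Summed over both lines, the most covered complex I promoter was that of NDUFA11, an accessory subunit of the membrane arm, with 777 bp in K562 (chr19:5904158-5904934) and 969 bp in HepG2 (chr19:5903986-5904954). These were wide intervals, centred 529 and 453 bp upstream of its nearest TSS, and each lay closer to the TSS of an unnamed coding gene than to NDUFA11 itself. NDUFV3, an accessory subunit next to the NADH-binding core, had 3 separate high-confidence intervals in each line, totalling 909 bp in K562 and 705 bp in HepG2. The largest of them lay in an intron, 4 bp (K562, chr21:44313136-44313612) and 13.5 bp (HepG2, chr21:44313173-44313556) upstream of an NDUFV3 TSS, while the other K562 intervals were nearer to WDR4. None of the NDUFV3 intervals held a complete G4 motif, at 64.2 to 72.7% GC.

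NDUFV2 had 347 bp in K562 (chr18:9102424-9102770) and 268 bp in HepG2 (chr18:9102471-9102738), centred 31 and 23.5 bp upstream of its nearest TSS. Both intervals held the pair of template-strand motifs printed above, and no other gene among the 4 most covered of complex I had more than 1. NDUFA6, an accessory subunit of the LYR-motif family, had 306 bp in K562 (chr22:42486776-42487081) and 250 bp in HepG2 (chr22:42486772-42487021) with no complete motif. Thus 2 of the 4 most covered complex I promoters had a motif in their intervals and 2 did not.

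Complex II (succinate dehydrogenase) splits between its catalytic and its membrane subunits. SDHA, the flavoprotein that oxidises succinate, and SDHB, the iron-sulfur subunit, had high-confidence intervals in both lines. SDHC and SDHD, the heme-binding membrane anchors, had lower-confidence intervals only, in both lines. The SDHB interval measured 356 bp in K562 (chr1:17380475-17380830) and 348 bp in HepG2 (chr1:17380509-17380856), with 1 template-strand motif 146 bp upstream of the TSS. The SDHA interval measured 283 bp in K562 (chr5:218179-218461) and 166 bp in HepG2 (chr5:218264-218429). It held no complete motif at 75.3% and 75.9% GC, but 4 copies of the NRF1 pattern spaced 49 bp apart, as the stretch printed above shows for the 3 upstream ones. The TSS of CCDC127, transcribed the other way, lies 167 bp from that of SDHA, so the interval cannot be given to either gene alone. Pseudogene copies of SDHA exist elsewhere in the genome, and whether reads from them reached this interval was not tested.

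Complex III (cytochrome bc1) passes electrons from ubiquinol to cytochrome c. Of its 9 genes, 6 (66.7%) were positive in each line, against 36.7% of all genes in K562 and 32% in HepG2. In both lines 4 (44.4%) were positive, against 25.3% of all genes, namely UQCR11, UQCRB, UQCRC1 and UQCRQ. UQCRQ, a small accessory subunit, had 221 bp in K562 (chr5:132202092-132202312) and 316 bp in HepG2 (chr5:132202080-132202395), both nearer to GDF9, whose TSS is 173 bp away on the other strand. UQCRC1, a core subunit, had intervals of 138 bp (chr3:48647075-48647212) and 137 bp (chr3:48647087-48647223), each with 1 NRF1 match. UQCR11, another small subunit, had 183 bp in K562 (chr19:1605452-1605634) with 1 complete motif and 2 NRF1 matches, and 91 bp in HepG2 (chr19:1605588-1605678) with neither.

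The partners of these genes fell on different sides. UQCRC2, the other core subunit, had a 331 bp interval in HepG2 (chr16:21964327-21964657), centred 117 bp upstream at 51.7% GC, and none of either list in K562. UQCRFS1, the Rieske iron-sulfur protein, and UQCRH, the hinge protein, were high-confidence in K562 and lower-confidence in HepG2. The UQCRH high-confidence interval was centred 405 bp upstream of its TSS and 19 bp from the TSS of LRRC41. At the UQCRH start itself the intervals were lower-confidence in both lines. UQCRHL, an intronless copy of UQCRH, had no interval. CYC1, the cytochrome c1 subunit, whose symbol the prefixes do not catch, was high-confidence in K562 and lower-confidence in HepG2, and CYCS, the cytochrome c electron carrier, was high-confidence in both.

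Complex IV (cytochrome c oxidase) reduces oxygen to water, and 6 of its 16 genes (37.5%) were positive in each line. The shares of all genes were 36.7% in K562, close to it, and 32% in HepG2. COX5A, COX5B, COX6A1, COX6B1 and COX7A2L were positive in both. COX5A had 286 bp in K562 (chr15:75230335-75230620) and 270 bp in HepG2 (chr15:75230340-75230609) at 72.7 and 74.1% GC with no complete motif. COX6A1 had 226 bp in each line, at chr12:120875695-120875920 in K562 and chr12:120875646-120875871 in HepG2, with centres 85.5 and 134.5 bp upstream. COX6B1 had 203 bp (chr19:36139056-36139258) and 202 bp (chr19:36139042-36139243) at 55.7 and 57.9% GC, with not even a motif of 4 runs of at least 2 G. COX7A2L, a factor of respiratory supercomplexes, had 178 bp (chr2:42588633-42588810) and 261 bp (chr2:42588595-42588855) in the annotated 5′ UTR of a longer transcript, around the motif printed above.

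Complex IV has tissue-restricted isoforms, and in these pairs high-confidence intervals were found at the widely used ones only. Of the 6 widely used members of the pairs (COX4I1, COX6A1, COX6B1, COX7A2, COX8A and NDUFA4), 4 were positive in K562, 4 in HepG2 and none lacked an interval. Of the 6 restricted members (COX4I2, COX6A2, COX6B2, COX7A1, COX8C and NDUFA4L2), 0 were positive in either line, which with 6 genes leaves a Wilson upper limit of 39%, above the share of all genes in each line. COX6B2, a testis isoform, had a lower-confidence interval in K562, and the other 5 had none. COX4I1 carried a 171 bp high-confidence interval in K562 (chr16:85833143-85833313), overlapped by a lower-confidence one of 162 bp in HepG2 (chr16:85833165-85833326), while for COX4I2 the nearest high-confidence interval lay 23842 bp away in K562 and 23836 bp in HepG2. NDUFA4 had 281 bp in K562 (chr7:10979995-10980275) and 141 bp in HepG2 (chr7:10980031-10980171), 355 and 321 bp upstream of its TSS. COX8A had 93 bp of high-confidence interval in HepG2 (chr11:63741872-63741964) at 48.4% GC, within lower-confidence stretches of both lines. COX7A2 had lower-confidence intervals of 93 bp in K562 (chr6:75953574-75953666) and 215 bp in HepG2 (chr6:75953502-75953716). The COX6B2 interval measured 425 bp (chr19:55865307-55865731), lay 389 bp downstream of a TSS and held 2 coding-strand motifs. COX6C and COX7C, which are widely used, also lacked any interval, and breadth of use was not measured here.

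**Figure D2:**
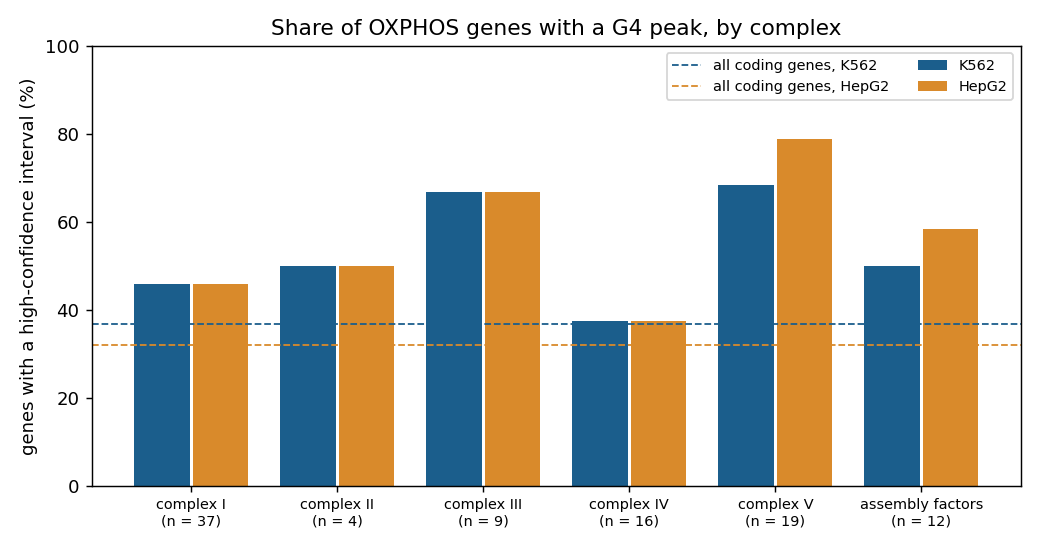
Percentage of genes with a high-confidence interval within 1 kb of a TSS, by complex and line, with the number of genes below each pair of bars; dashed lines mark all 19229 coding genes (36.7% in K562, 32% in HepG2). The bars of complex V reach 68.4 and 78.9%, and those of complex IV stand at 37.5%.

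Complex V (ATP synthase) had the highest shares of the 5 complexes, although in K562 the 66.7% of complex III was close. With few genes per complex, this order rests on small counts. Of its 19 genes, 13 (68.4%) were positive in K562 and 15 (78.9%) in HepG2, with 13 (68.4%) positive in both. The same shares of all genes were 36.7, 32 and 25.3%. Of the 5 subunits of the soluble F1 head, ATP5F1B, ATP5F1C, ATP5F1D and ATP5F1E were positive in both lines, and ATP5F1A was lower-confidence in K562 and high-confidence in HepG2. All 4 genes of the peripheral stalk, which holds the head still, were positive in both (ATP5PB, ATP5PD, ATP5PF and ATP5PO). ATP5MC1 and ATP5MC2 were positive in both and ATP5MC3 was lower-confidence in both, although these 3 genes encode the same mature c-ring protein. ATP5ME and ATP5MF and the inhibitor ATP5IF1 were positive in both, ATP5MK in HepG2 only at high confidence, ATP5MJ was lower-confidence, and ATP5MG and its paralog ATP5MGL had no interval.

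ATP5MC1 had the most covered bp of the complex summed over both lines, with 375 bp in K562 (chr17:46969754-46970128) and 632 bp in HepG2 (chr17:46969649-46970280), at 58.1 and 59% GC with no complete motif. ATP5F1E had 355 bp (chr20:57607300-57607654) and 287 bp (chr20:57607350-57607636) at 72.7 and 74.2% GC, also with no complete motif. ATP5F1B, which carries the catalytic sites, had 166 bp in K562 (chr12:57039759-57039924) and 363 bp in HepG2 (chr12:57039780-57040142) at 55.4 and 50.7% GC, without a motif. The K562 interval of ATP5F1B had the lowest GC content of the 56 at OXPHOS genes.

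ATP5F1D is an exception among the F1 genes, since its high-confidence intervals in the lines do not overlap. In K562 it had 218 bp at chr19:1241591-1241808, 45.5 bp upstream of its TSS, and 158 bp in a 3′ UTR at chr19:1244513-1244670. In HepG2 the high-confidence interval lay downstream at chr19:1244880-1245209, 209 bp from the K562 one and with 178 of its 330 bp inside the window. Lower-confidence HepG2 intervals overlapped both K562 intervals, at chr19:1241649-1241786 over the promoter and at chr19:1244520-1244748.

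Of the 41 genes positive in both lines, 38 had overlapping intervals, with a median overlap of 177 bp between intervals with median widths of 218 and 212 bp. The overlap share was not computed for all 4861 genes positive in both lines, so it cannot be called particular to OXPHOS genes. The 3 genes without overlap were ATP5F1D, NDUFAF3, with 306 bp between its high-confidence intervals, and SDHAF4, with 8 bp. At NDUFAF3 and SDHAF4, each high-confidence interval lay inside a lower-confidence interval of the other line. UQCRB counts as overlapping with only 9 bp in common. The K562 interval was the wider one at 23 genes and the HepG2 one at 17. Widths depend on how many replicates had to agree, which differs between the lines, so they do not measure the extent of a G4 site. ATP5PF shows a near-complete overlap, with 178 bp in K562 (chr21:27107212-27107389) and 180 bp in HepG2 (chr21:27107209-27107388). Its promoter is shared with GABPA, the transcription factor named above, whose TSS lies 68 bp away on the other strand. ATP5PD had 244 bp (chr17:73043040-73043283) and 264 bp (chr17:73043022-73043285), each with 1 coding-strand motif.

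**Figure D3:**
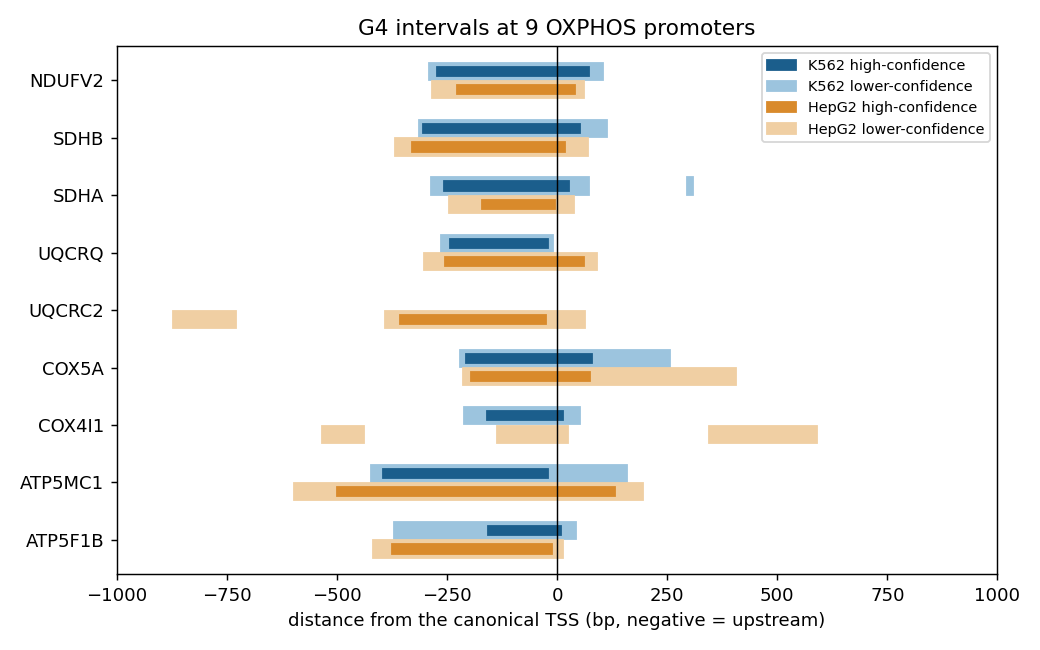
High-confidence (dark) and lower-confidence (pale) intervals of K562 (blue, upper bar) and HepG2 (orange, lower bar) at 9 promoters, in bp from the canonical TSS, with negative values upstream. UQCRC2 has no K562 bar and COX4I1 no dark HepG2 bar, while the dark bars of the other 7 genes overlap between the lines just upstream of the TSS.

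No OXPHOS gene was high-confidence in K562 and without any interval in HepG2 (0 of 99, with a Wilson upper limit of 3.74%, which includes the 3.15% of all genes). The reverse held for 4 genes (4.04%, 1.58 to 9.93%; 2.54% of all genes), which were NDUFB3, NDUFB4, UQCR10 and UQCRC2. The lines differ in replicate number and threshold, and the lower-confidence HepG2 list is the longest, with 28387 intervals against 19249 in K562. How this bears on the asymmetry was not tested.

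The 4 genes differed in the kind of interval. NDUFB4, an accessory subunit of the membrane arm, had 233 bp (chr3:120315010-120315242) centred 49 bp upstream at 57.9% GC, with the NRF1 pattern at 3 positions, 1 of them matching on both strands, printed here from the plus strand with the pattern in capitals.
NDUFB4 (chr3:120315014-120315043): agagcacttcGCGCATGCGCatatcaccga
NDUFB4 (chr3:120315110-120315139): ctctgctaacGCGCAGGCGCacttcctgaa
NDUFB4 (chr3:120315165-120315194): cctcagaatcGCGCAGGCGCaattgtgccc
NDUFB3, another accessory subunit, had 17 bp (chr2:201936394-201936410) and 114 bp (chr2:201936418-201936531), both nearer to HYCC2. Both pieces lay inside the same lower-confidence HepG2 interval of 481 bp. UQCR10, a small complex III subunit, had 158 bp (chr22:30162922-30163079) centred 0.5 bp from the TSS of ZMAT5 and 357.5 bp upstream of its own. Only NDUFB4 and UQCRC2 of these 4 therefore had an interval nearest to their own TSS.

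A further 10 genes (10.1%, 5.58 to 17.6%) were high-confidence in K562 and lower-confidence in HepG2, against 8.24% of all genes. They were COX4I1, NDUFA8, NDUFAB1, NDUFB2, NDUFB9, NDUFS3, SDHAF2, SDHAF3, UQCRFS1 and UQCRH. The reverse class held 9 genes (9.09%, 4.86 to 16.4%), against 4.22% of all genes, and included ATP5F1A, ATP5MK, COX8A, NDUFA2, NDUFAF2, NDUFAF4, NDUFAF5 and NDUFS8. Lower-confidence intervals alone were found at 16 genes (16.2%, 10.2 to 24.7%), close to the 16.9% of all genes. Of these, ATP5MC3, ATP5MJ, COX7A2, NDUFA5, NDUFA10, NDUFA12, NDUFA13, NDUFAF7, NDUFB5, NDUFB6, NDUFS5, SDHAF1, SDHC and SDHD had them in both lines, COX6B2 in K562 only, and NDUFAF1 in HepG2 only.

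The 19 genes with no interval were ATP5MG, ATP5MGL, COX4I2, COX6A2, COX6C, COX7A1, COX7B2, COX7C, COX8C, NDUFA4L2, NDUFA9, NDUFB1, NDUFB8, NDUFC2, NDUFC2-KCTD14, NDUFS4, NDUFS6, NDUFS7 and UQCRHL. They mix tissue-restricted or duplicated genes with subunits of every respiring cell such as NDUFS4 and NDUFS7. A complete G4 motif was nonetheless present in the windows of 12 of the 19 (63.2%, and 61.7% of all genes without an interval). No high-confidence interval lay just outside the windows, the closest being 7000 bp from a TSS of UQCRHL in HepG2. Lower-confidence intervals lay within 2 kb of a TSS at 3 of the genes, NDUFA4L2 and NDUFS6 in both lines and NDUFS7 in K562, the last at 1038 bp.

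Of the 12 assembly factors, 6 (50%) were high-confidence in K562 and 7 (58.3%) in HepG2, against 36.7 and 32% of all genes, and with lower-confidence intervals included 11 and 12 had one. NDUFAF3, NDUFAF6, NDUFAF8 and SDHAF4, which help to build complexes I and II, were high-confidence in both. In a list of 59 other OXPHOS-related genes, 35 (59.3%) were high-confidence in K562 and 37 (62.7%) in HepG2. Both shares lie above those of all genes, but the list was made with earlier results of these data known. Among its 13 regulators, 10 (76.9%) were high-confidence in K562 and 8 (61.5%) in HepG2, against 36.7 and 32% of all genes. These included TFAM, which packages mitochondrial DNA, and YY1, SP1 and GABPA in both lines. GABPA has the same promoter interval as ATP5PF, so these 2 genes are not separate cases. NRF1 itself was high-confidence in K562 with no interval in HepG2, while PPARGC1A, the coactivator of mitochondrial biogenesis, had none in either line.

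The intervals sat just upstream of the start site. The centres of the 57 gene and interval pairs in K562 had a median of -53 bp from the nearest TSS of the gene (quartiles -94 and -26.5), with 82.5% upstream and 87.7% within 250 bp. The 61 HepG2 pairs had a median of -67 bp (quartiles -130 and -24), with 83.6% upstream and 88.5% within 250 bp. For all genes the medians were -59 and -70.5 bp, so the OXPHOS intervals lay at much the same distance as others. By annotation, 37 centres in K562 and 39 in HepG2 fell outside the gene, and 8 and 11 fell in a 5′ UTR.

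**Figure D4:**
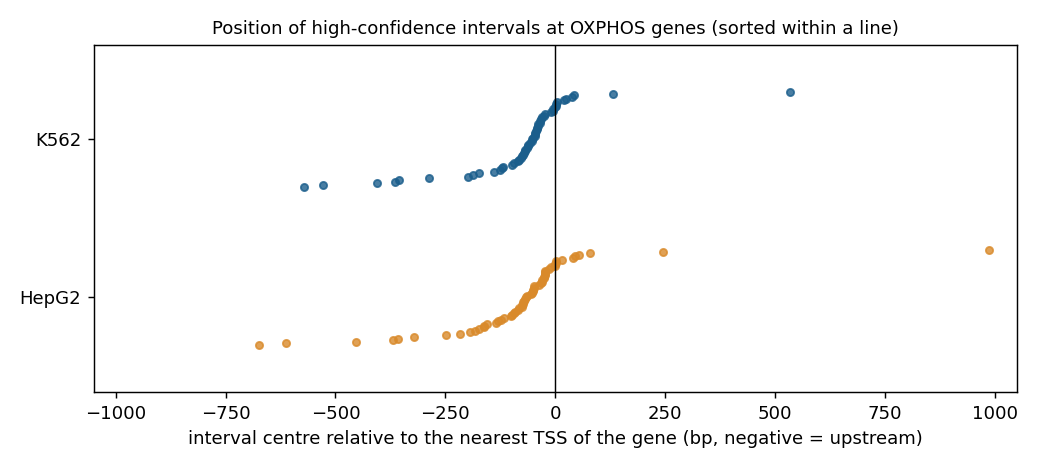
Centre of every high-confidence interval at an OXPHOS gene, in bp from the nearest TSS of that gene (negative is upstream), 1 point per gene and interval, sorted from upstream to downstream within each line. The points crowd just left of 0, with medians of -53 bp in K562 and -67 bp in HepG2.

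Many OXPHOS promoters were bidirectional, which limits which gene an interval can be given to. A coding gene on the opposite strand started within 1000 bp upstream of the canonical TSS at 28 of the 99 genes (28.3%), against 9.54% of all genes. Of those 28, 16 (57.1%, Wilson interval 39.1 to 73.5%) were positive in each line, against 63 and 64.3% of all genes with such a neighbour in K562 and HepG2. Of the 71 without, 35 (49.3%, 38 to 60.7%) and 38 (53.5%, 42 to 64.6%) were positive, against 33.9 and 28.6% of all genes without. Whether the difference from all genes depends on such a neighbour was not tested. In K562 10 positive genes, and in HepG2 11, had only intervals nearer to the TSS of another gene. Leaving out such genes took the OXPHOS share from 51.5 to 41.4% in K562 and from 54.5 to 43.4% in HepG2. The share of all genes also fell, from 36.7 to 31.6% and from 32 to 27%.

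G4 intervals at OXPHOS genes held complete G4 motifs less often than those at coding genes at large. In K562 it was 8 of 56 intervals (14.3%, Wilson interval 7.42 to 25.7%), against 35% of 7242. In HepG2 it was 7 of 60 (11.7%, 5.77 to 22.2%), against 25% of 6000. The widths were alike (medians of 205 and 204 bp in K562, 182 and 182 bp in HepG2), while GC content was lower, at medians of 67.6 against 71.2% in K562 and 64.4 against 67.6% in HepG2. Runs of at least 3 G on either strand numbered a median of 4.62 per 100 bp against 6.18 in K562 and 4.44 against 5.56 in HepG2. With the looser motif of 4 runs of at least 2 G, the shares were 91.1% for both sets in K562, and 80 against 85.8% in HepG2.

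The motif-bearing intervals were mostly on the template strand, with 7 template and 1 coding pair in K562 and 5 template and 2 coding in HepG2. These numbers are small, several of the same genes recur in both lines, and the strand share over all genes was not computed. Of the 64 genes positive in at least 1 line, 16 had no complete motif anywhere in their windows and 75% had one, against 87.5% of all such genes. A motif was present in the windows of 78% of genes positive in both lines, against 87.9% of all such genes.

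The promoters themselves, taken as the 300 bp from 250 bp before to 50 bp after the canonical TSS, showed the same composition. A complete G4 motif was present in 15 of 99 (15.2%), against 33.6% of all promoters, and the SP1 pattern GGGGCGGGG, which shares G runs with the G4 motif, in 11 (11.1%), against 24.6%. The other patterns, searched on both strands as well, were more frequent in OXPHOS promoters. The NRF1 pattern given above was in 24 (24.2%), against 8.41%, the GABPA pattern CCGGAAGT in 14 (14.1%), against 6.22%, and the YY1 pattern AANATGGCG in 25 (25.3%), against 4.97%. A match to these letters is a description and not a bound site.

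**Figure D5:**
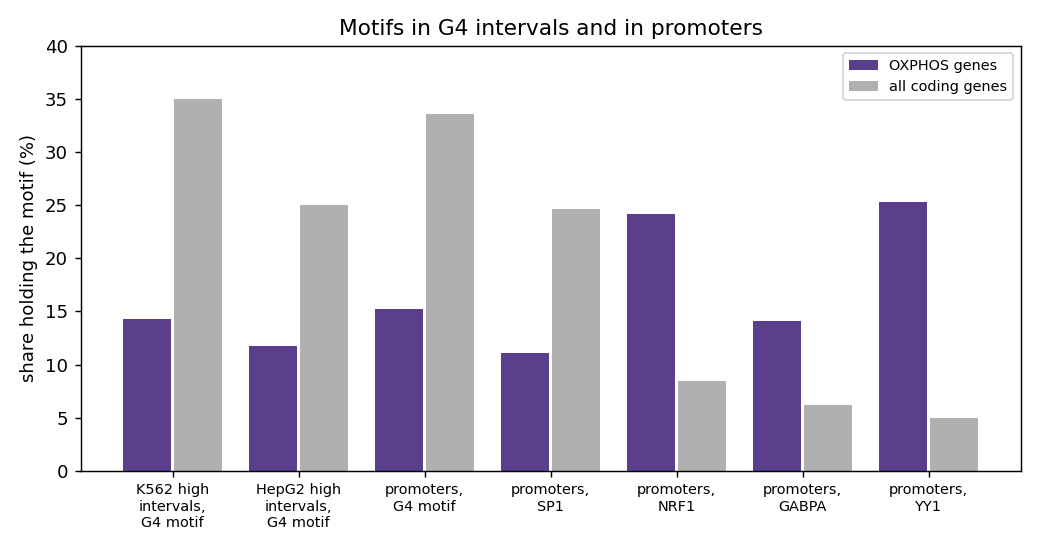
Share of high-confidence intervals with a complete G4 motif and share of 300 bp promoters with a G4 motif or with the SP1, NRF1, GABPA or YY1 pattern, for OXPHOS genes (purple) and all coding genes (grey). The purple bar is the lower one for G4 motifs (14.3, 11.7 and 15.2%) and SP1, and the higher one for NRF1 (24.2%), GABPA (14.1%) and YY1 (25.3%).

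Shares with an interval were also taken for OXPHOS genes with and without each promoter pattern, and they differed in either direction. A K562 high-confidence interval was found at 53.3% of genes with a promoter G4 motif and 51.2% of those without, whereas for all genes it was 45.4 and 32.3%. In HepG2 the OXPHOS shares were 46.7% with and 56% without, and 34.6 and 30.7% for all genes. With the NRF1 pattern present, 58.3% of OXPHOS genes were positive in each line, and without it 49.3% in K562 and 53.3% in HepG2. For all genes the NRF1 shares were 66.6 and 33.9% in K562 and 58.5 and 29.6% in HepG2. With the YY1 pattern, 60% of OXPHOS genes were positive in each line, and without it 48.6% in K562 and 52.7% in HepG2. For GABPA it was 57.1 against 50.6% in K562 and 64.3 against 52.9% in HepG2. The SP1 shares were 45.5 against 52.3% in K562 and 54.5% with and without in HepG2. Over all genes, the share was higher with each of these patterns than without it. Only 11 to 25 OXPHOS promoters carry each pattern, so a few genes set these shares.

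The GC content of the promoter fell with the class of the gene. The median was 63% for the 41 genes positive in both lines, 59.3% for the 23 positive in 1 line, 58.3% for the 16 with lower-confidence intervals only and 56.3% for the 19 with none. Over all genes the same classes had medians of 67.7, 67.3, 64.3 and 55.3%. OXPHOS promoters with an interval were therefore GC-poorer than other promoters with one, and those without were about as GC-rich as others without.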

How the data were processed

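G4 ChIP-seq was done in K562 and HepG2 cells (per line, 3 ChIP and 1 input libraries are labelled). Reads were trimmed by the authors (cutadapt), mapped on hg19 (BWA) and freed of duplicates, and peaks called in each replicate (MACS2) were merged by bedtools multiinter. The deposited files used here hold interval positions in bp, 4 lists in all (9205 and 19249 intervals in K562, 8805 and 28387 in HepG2), with no read count, height or replicate number. Depth per sample is thus unknown from these files, and they allow neither a replicate error nor a test. Reads were not analysed here.

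Intervals were compared with GENCODE version 44 lifted to GRCh37 (pysam 0.24.0, numpy 2.4.6, scipy 1.17.1), an annotation later than the one used in the study. Windows ran 1000 bp either side of every TSS, overlap was at least 1 bp, and the canonical TSS was the tagged one or, for 251 genes without a tag, the most upstream coding TSS. Sequences were read from GRCh37 on both strands, and a palindromic match counts on both. The overlap and motif searches were tested on simulated data. Wilson intervals are at 95% and cover the counting of genes or intervals only.

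Members and gene lists were chosen with earlier results of these data known. Every gene but 1, which is not reported here, is named with its class. Coordinates are given for the 4 genes per complex with most bp covered by high-confidence intervals summed over the lines, genes high-confidence in 1 line and absent from the other, and the isoform pairs. ATP5PF and the subunit groups named within complexes I and V were picked with their values in view. Alternatives were other windows, TSS sets, overlap minima, nearest-gene assignment, narrower gene sets and other motif definitions.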

Additional observations from a re-analysis of the deposited data

How the results depend on the processing

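The 5 counts of OXPHOS genes recomputed (high-confidence in K562, in HepG2 and in both, and any interval in each line) stayed within 1.5 times their values under the alternatives tried. Counts by complex, isoform, neighbour and line-specific class were not recomputed. The number of genes with a high-confidence interval ran from 41 to 51 in K562 and from 43 to 54 in HepG2, and from 32 to 41 for both lines, the lowest value coming each time from counting an interval only for the gene with the nearest TSS. Under that rule the shares were 41.4% against 31.6% of all genes in K562 and 43.4% against 27% in HepG2. Of the 4 genes high-confidence in HepG2 and without an interval in K562, NDUFB3 and UQCR10 have intervals nearer to another gene. Including lower-confidence intervals, the counts ran from 62 to 78 in K562 and from 66 to 82 in HepG2. The share of intervals with a G4 motif moved with runs of at least 2 G, to 91.1% in K562 and 80% in HepG2. Loops of up to 12 bases gave 25% against 51.1% of all intervals in K562 and 16.7% against 39.8% in HepG2. No paired analysis was possible because the deposited lists are merged over replicates and no test was run. The merged lists hold no depth, so a gene without an interval cannot be told from one covered too thinly for a call.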
